A study of Mus musculus with 18 samples.

Results

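Accessible chromatin in the neighbourhoods of the olfactory receptor genes was examined in cultures of mouse cortical neurons. A neighbourhood is a protein-coding gene with a symbol starting Olfr and the 10 kb on either side of it, and every deposited consensus peak that overlaps one was taken. This gave 401 of the 211674 peaks on chromosomes 1 to 19, X and Y (0.189%), around 1109 receptor genes on 17 chromosomes. Of those genes, 22 were isolated, meaning that no other receptor gene lay within 100 kb. The other 1087 lay in 60 clusters, chains of receptor genes with gaps of at most 100 kb. Of these clusters, 7 were pairs with 14 genes, and 53 held at least 3 genes, with 106 edge genes (the first and last of each) and 967 interior genes.

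The peaks come from ATAC-seq, in which a transposase cuts and tags open DNA, on 18 samples of primary cortical neurons from CD1 mouse embryos (E14.5-E15). The cultures were bulk, so a site open in few cells and one weakly open in many cannot be told apart. Each received cytosine arabinoside at 2 µM against dividing cells and a pair of lentiviral short hairpin RNAs on day 6, and was taken on day 11. The pairs were shControl with shScrambled (5 samples), shOpa1 with shScrambled (5), shOpa1 with shAtf4 (5) and shControl with shAtf4 (3). Opa1 serves the fusion of the inner mitochondrial membrane, and Atf4 is a stress-response transcription factor. The design crosses both knockdowns to find accessibility that depends on Atf4. What was deposited as consensus peaks, and used here, carries neither values by sample or group nor read depth. The series' design names MACS2 calls of shAtf4 against shControl samples, and whether this list was built from such calls or from calls on single samples was not stated, so absence from it need not mean closed chromatin. No knockdown groups could be compared, no value has replicates, and the depth is unknown. Intervals are 95% exact Clopper-Pearson limits for shares and exact Poisson limits for densities. They cover counting error only, and neighbouring receptors can share a peak, so their shares are less precise than the limits state.

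Olfactory receptors are G protein-coupled receptors that bind odorants in the nose, and they form the largest gene family of the mouse. Each olfactory sensory neuron expresses 1 receptor allele, while the other receptor genes are held in compacted chromatin. The factors Lhx2, Ebf and Ldb1 act at enhancers that lie among the receptor genes, and the kinase Perk (gene Eif2ak3) and the factor Atf5 carry a feedback signal that settles the choice. Cortical neurons are not expected to use this system.

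Promoter windows are given first, since so few annotated receptor starts lay in a peak. RefSeq windows from 250 bases before to 50 after a transcript start (GRCm38.p6, the assembly also named mm10) matched 944 of the 1109 receptors with 948 windows. A peak overlapped 18 of the 948 (1.90%), against 65.7% of 20315 windows of other protein-coding genes. Most receptor models appear to hold the coding part alone, since 873 of 1109 have a length divisible by 3. Their windows can then lie at the coding start and not the true transcript start, which limits comparison with the windows of other genes. Of these 18, 4 are shown, together with 1 window with no peak. They were chosen after their values were seen: Olfr536 had the widest peak over a receptor window, Olfr373 like Olfr536 held 2 kinds of motif, and Olfr1324 and Olfr49 were the only isolated receptors among the 18. Olfr73, the eugenol receptor known as mOR-EG, stands for the windows without a peak. Capitals mark matches, on either strand, to 5 words: the Ebf site CCCNNGGG, the homeodomain site TAATTA, the ATF4 composite site TGATGNAA, the cAMP response element TGACGTCA and the TATA box TATAAA. None of the words contains another.
Olfr536: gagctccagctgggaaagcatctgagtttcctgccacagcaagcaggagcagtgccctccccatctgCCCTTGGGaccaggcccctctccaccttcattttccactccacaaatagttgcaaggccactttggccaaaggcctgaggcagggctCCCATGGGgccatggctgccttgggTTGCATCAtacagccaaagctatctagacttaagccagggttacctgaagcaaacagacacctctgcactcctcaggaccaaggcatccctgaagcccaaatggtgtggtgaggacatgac
Olfr373: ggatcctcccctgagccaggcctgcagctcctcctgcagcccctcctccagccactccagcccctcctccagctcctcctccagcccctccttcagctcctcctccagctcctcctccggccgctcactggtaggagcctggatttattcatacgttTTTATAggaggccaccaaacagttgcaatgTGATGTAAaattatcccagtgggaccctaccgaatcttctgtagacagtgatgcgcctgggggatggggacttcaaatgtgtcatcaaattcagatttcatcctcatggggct
Olfr1324: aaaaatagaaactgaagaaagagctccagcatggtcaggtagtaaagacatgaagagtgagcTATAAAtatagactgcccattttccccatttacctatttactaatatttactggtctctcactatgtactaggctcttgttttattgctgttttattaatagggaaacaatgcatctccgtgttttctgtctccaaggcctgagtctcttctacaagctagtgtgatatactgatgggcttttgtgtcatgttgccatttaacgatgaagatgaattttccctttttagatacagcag
Olfr49: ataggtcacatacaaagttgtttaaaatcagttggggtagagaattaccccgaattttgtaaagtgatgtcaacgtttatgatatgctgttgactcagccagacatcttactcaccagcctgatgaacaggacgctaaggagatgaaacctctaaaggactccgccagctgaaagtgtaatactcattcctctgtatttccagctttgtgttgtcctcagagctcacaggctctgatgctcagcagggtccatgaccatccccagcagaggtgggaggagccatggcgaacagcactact
Olfr73: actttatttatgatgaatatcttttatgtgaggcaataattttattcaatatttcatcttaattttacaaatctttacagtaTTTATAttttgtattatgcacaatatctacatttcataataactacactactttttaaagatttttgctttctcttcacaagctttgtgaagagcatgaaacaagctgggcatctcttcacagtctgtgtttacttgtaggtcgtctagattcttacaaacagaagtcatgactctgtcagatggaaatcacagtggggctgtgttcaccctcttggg

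The window of Olfr536 (chr7:140507269-140507568, minus strand) shared 123 bases with a peak of 576 bp, and it held 2 matches to the Ebf word, at bases 68 and 155 from its 5′ end, and 1 to the ATF4 word, at base 180. The window of Olfr373 (chr8:72099512-72099811, plus strand) lay wholly in a peak of 488 bp, with the TATA word at base 158 and the ATF4 word at base 188. That of Olfr1324 (chrX:50426445-50426744, minus strand) shared 169 bases with a peak of 502 bp and held the TATA word at base 63. That of Olfr49 (chr14:54282876-54283175, minus strand) lay wholly in a peak of 373 bp and held none of the 5 words. The Olfr73 window (chr2:88035088-88035387, minus strand) has 32.3% G and C, against 56.3% at Olfr536, 56.0% at Olfr373, 46.7% at Olfr49 and 37.3% at Olfr1324.

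Receptor windows were poor in G and C, with a median of 35.0% against 57.0% for other protein-coding genes, and 316 of the 948 held no CG dinucleotide. Where a model holds the coding part alone, its window need not be the promoter, so these values describe annotated starts. The 18 windows with a peak had a median of 45.2%, and the 930 without had 35.0%. Other protein-coding genes had medians of 61.7% with and 48.3% without a peak. The AT-rich words were common among receptors. The homeodomain word was in 176 of 948 windows (18.6%, against 5.29% of all 32851 promoter windows of the table), the TATA word in 389 (41.0% against 13.6%) and the ATF4 word in 85 (8.97% against 3.97%). The Ebf word was in 29 (3.06% against 13.7%) and the cAMP response element in 1 (0.105% against 1.79%). Of the 18 windows with a peak, 4 held the ATF4 word (Olfr536, Olfr373, Olfr648 and Olfr332), 2 the Ebf word (Olfr536 and Olfr288), 2 the TATA word (Olfr373 and Olfr1324), 1 the homeodomain word (Olfr20) and 0 the cAMP response element. These matches describe letters and are not measured binding.

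Receptor neighbourhoods held few peaks. Of the 1109 receptors, 298 (26.9%, 24.3 to 29.6%) had a peak in the gene or within 10 kb, against 85.5% of all protein-coding genes. A peak lay within 1000 bp of either end of 75 receptors (6.76%, 5.36 to 8.40%), against 70.4% of all protein-coding genes, and over the body of 48 (4.33%), against 77.4%. The neighbourhoods together span 19.9 Mb and held 20.1 peaks per Mb (18.2 to 22.2). The neighbourhoods of other protein-coding genes held 109.1 per Mb, sequence over 10 kb from any protein-coding gene held 53.2, and all nuclear chromosomes held 79.5. Peaks covered 0.859% of receptor neighbourhoods and 4.12% of the chromosomes. Receptors were thus below sequence far from coding genes as well as below genes.

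Most receptors had no peak near them, and those with one rarely had many. Within 10 kb, 811 receptors had no peak, 180 had 1, 70 had 2 and 48 had 3 or more, with 6 as the highest number. Within 50 kb, 429 receptors (38.7%) still had none, against 6.38% of other protein-coding genes. Receptor genes are short, with a median model of 951 bp, and long genes have more room for peaks. Among 825 other protein-coding genes no longer than 1038 bp, the upper quartile of receptor length, 37.8% had a peak within 10 kb and 19.3% at an end, at 45.4 peaks per Mb. Of these short genes, 355 (43.0%) had no peak within 50 kb, so at that distance the share without any peak was not higher among receptors (38.7%). The short genes were chosen by length alone, and other chemoreceptor families were not left out of them. On chromosome 2, which holds 287 receptors, 11.8% of receptors and 96.0% of other protein-coding genes had a peak within 10 kb. On chromosome 7 (239 receptors) the shares were 32.6% and 79.1%, and on chromosome 9 (130 receptors) 25.4% and 95.3%.

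Isolated receptors and cluster edges had peaks more often than cluster interiors. Of the 22 isolated receptors, 11 had a peak within 10 kb (50.0%, 28.2 to 71.8%), as did 8 of 14 receptors in pairs (57.1%, 28.9 to 82.3%), 52 of 106 edge genes (49.1%, 39.2 to 59.0%) and 227 of 967 interior genes (23.5%, 20.8 to 26.3%). The densities were 54.2 peaks per Mb for isolated receptors (35.1 to 80.0), 34.6 for pairs (17.3 to 62.0), 47.4 for edges (39.0 to 57.0) and 16.4 for interiors (14.54 to 18.42). The first value lies close to the 53.2 of sequence away from coding genes, but it rests on 25 peaks, of which 6 lay at Olfr750 alone. The neighbourhood of an edge gene reaches outside its cluster. By midpoint, the outer 10 kb flanks of clusters of at least 3 receptors held 54.7 peaks per Mb (41.5 to 70.7). The spans of these clusters held 15.2 (13.8 to 16.8). At gene ends the counts were 3 of 22 isolated receptors, 2 of 14 in pairs, 13 of 106 edge genes (12.3%) and 57 of 967 interior genes (5.89%). Whether an isolated receptor stands apart depends on how isolation is set. With gaps of 500 kb joined, 10 receptors remained isolated and 2 had a peak (20%), against 26.9% of clustered ones. With gaps of 1000 kb joined, 1 of 9 had one (11.1%), against 27.0%. Without chromosome X the isolated share was 8 of 18 (44.4%, 21.5 to 69.2%), an interval that includes the clustered share of 26.4%.

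**Figure D1:**
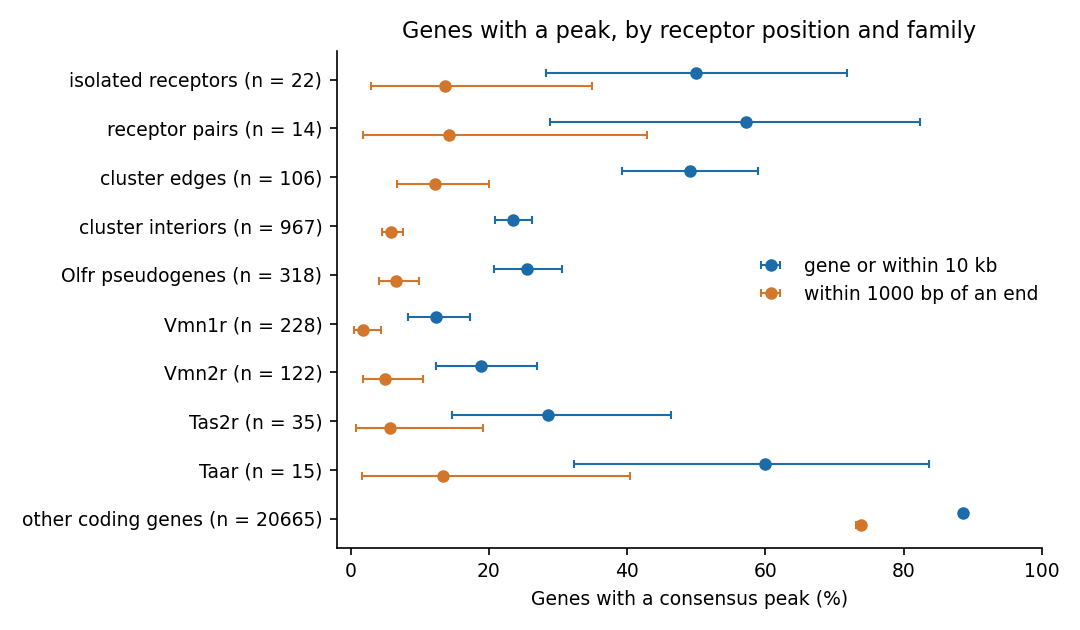
Share of genes (percent, horizontal axis) with a consensus peak in the gene or within 10 kb (blue) and within 1000 bp of either end (orange), for receptors by position, Olfr pseudogenes, other chemoreceptor families and other protein-coding genes. Points are shares and bars are exact 95% intervals. Edge genes stand at 49.1% and interior genes at 23.5% in blue, and other coding genes at 88.6%.

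Of the isolated receptors, Olfr750 on chromosome 14 had the most peaks, 6, all between 51063033 and 51066048 on its downstream side and between 156 and 921 bp wide. They fall within about 3 kb and so mark 1 place rather than 6. Olfr1324 on chromosome X had 4, of which 1 (50426112 to 50426613) covered its start and 3 lay upstream, from 1238 to 6124 bp away. Olfr459 on chromosome 6 had 3, the widest of them 905 bp, 3150 bp upstream. Olfr15 on chromosome 16 had 3, 1 of them in the gene (326 bp) and 2 at the neighbouring zinc finger gene Zfp174. Olfr16, the lyral receptor known as MOR23, had 2 on chromosome 1, of 400 bp at 1104 bp upstream and 354 bp at 2618 bp downstream. Olfr221 on chromosome 14 also had 2, and Olfr49, Olfr164, Olfr1322, Olfr1323 and Olfr1367 had 1 each. Among the 11 isolated receptors with none were Olfr1325 (chromosome X), Olfr1402 (chromosome 3) and Olfr161 (chromosome 16). Within 50 kb, Olfr720, Olfr19 and Olfr266 still had 0 peaks, and the other 8 had between 1 and 6, the most at Olfr370. A peak overlapped the gene itself in 3 of the 22, Olfr1324, Olfr15 and Olfr49.

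Density was higher outside the clusters than inside them. For the 42 clusters of at least 5 receptors, with 1034 genes, sequence from 200 to 500 kb outside the outermost gene held 105.2 peaks per Mb (100.5 to 110.0). It held 91.3 from 100 to 200 kb, 85.3 from 50 to 100 kb, 60.7 from 10 to 50 kb and 51.2 (37.0 to 69.0) in the last 10 kb before the border. Inside the span the first 10 kb held 39.3 per Mb (27.0 to 55.2), and 24.6, 15.6, 18.2 and 8.58 (6.43 to 11.2) followed at 10 to 50, 50 to 100, 100 to 200 and 200 to 500 kb from the nearer border. The intervals on either side of the border overlap, so no step at the outermost gene itself was resolved. Of the 1923 peaks from 200 to 500 kb outside, 1292 lay in or at a non-receptor coding gene, while 2 of the 53 peaks from 200 to 500 kb inside did. The bin from 200 to 500 kb inside comes only from the 15 clusters that span over 400 kb, with 781 receptors, so in the profile of all 42 clusters depth is mixed with cluster size. In those 15 clusters alone, a choice made after seeing the data, the bins inside held 26.7 (11.5 to 52.5), 19.2 (12.2 to 28.8), 10 (5.6 to 16.5), 17.3 (12.9 to 22.7) and 8.58 peaks per Mb from the border inwards. Sequence beyond 500 kb from either border, in 6 clusters, held 57 peaks at 8.95 per Mb (6.78 to 11.6).

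**Figure D2:**
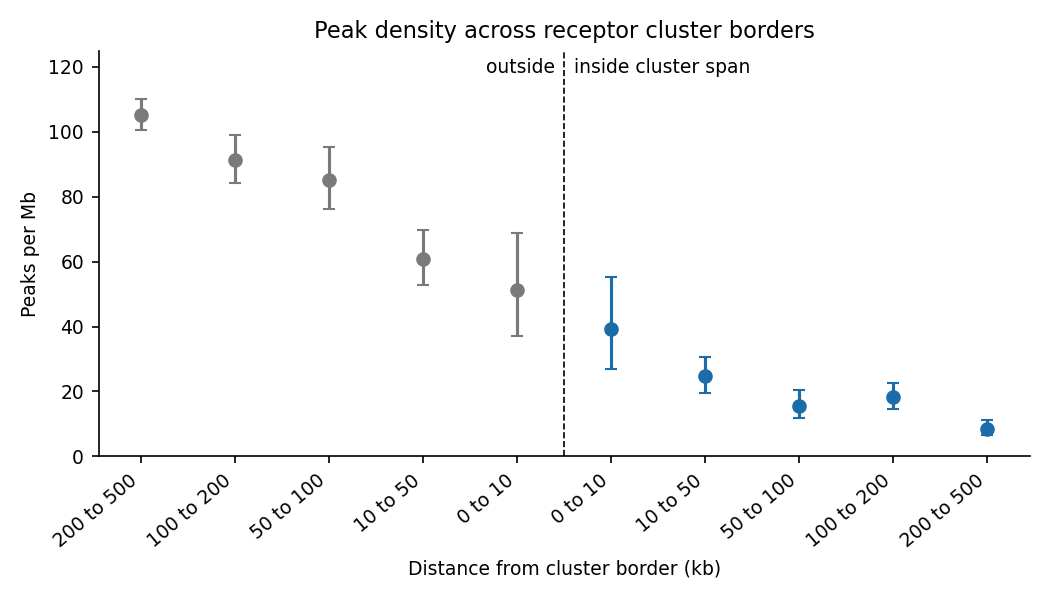
Peaks per Mb (vertical axis) in bins of distance from the outermost receptor gene of 42 clusters of at least 5 receptors, outside (grey) and inside (blue) the span. Bars are exact 95% Poisson intervals. Density goes from 105.2 at 200 to 500 kb outside to 8.58 at 200 to 500 kb inside, a bin that only 15 of the clusters reach.

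The edge pattern was not seen in every cluster. Within the 53 clusters of at least 3 receptors, the edge share was higher than the interior share in 28, lower in 13 and equal in 12, of which 6 had no peak near any receptor. With clusters built from gaps of 50 kb, which turns many inner receptors into edges, 32.2% of edge genes and 24.2% of interior genes had a peak within 10 kb. Another coding gene lay within 10 kb of 22 of the 106 edge genes and of 17 of the 967 interior genes. Among receptors with no such neighbour, 35 of 84 edge genes (41.7%, 31.0 to 52.9%) and 218 of 950 interior genes (22.9%, 20.3 to 25.8%) had a peak within 10 kb. The difference between edges and interiors was thus also present among receptors with no other coding gene within 10 kb. Coding genes farther away were not taken into account. Among clusters of at least 3 receptors, the lowest share was in the largest and the highest in the smallest: 48.7% of receptors in clusters of 3 to 4, 35.1% in clusters of 5 to 9, 37.9% in clusters of 10 to 24 and 20.1% in clusters of 25 or more. Small clusters hold relatively more edge genes, and the part of this in the shares was not tested.

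Clusters differed widely among themselves. The 42 clusters of at least 5 receptors had a median of 12.8 peaks per Mb of span and ranged from 0 to 112.2. Peak midpoints were lacking in 6 of them, and 2 exceeded the 79.5 per Mb of the nuclear chromosomes. The largest cluster, Olfr996 to Olfr1274 on chromosome 2 (85579215 to 90401674), holds 216 receptors, of which 28 had a peak within 10 kb, and it had 33 peaks in 4.82 Mb (6.84 per Mb). It includes a run of 30 receptors, Olfr1130 to Olfr1164, with no peak within 10 kb. Olfr160 to Olfr986 on chromosome 9 has 95 receptors and 21.4 peaks per Mb, with 30 receptors near a peak. Olfr543 to Olfr649 on chromosome 7 (102476773 to 104190205) has 91 receptors and 26.3 peaks per Mb, with 44 receptors near a peak (48.4%). It is part of the class I receptor region, which surrounds the beta-globin genes. Olfr9 to Olfr827 on chromosome 10 (58 receptors) had 9.83 per Mb, and Olfr467 to Olfr519 on chromosome 7 (42 receptors) had 5.56.

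Among clusters of at least 25 receptors, those with the lowest density lay on chromosomes 2 and 19. Olfr338 to Olfr368 on chromosome 2, with 28 receptors in 0.956 Mb, had no peak midpoint in its span. In Olfr1444 to Olfr1505 on chromosome 19, with 41 receptors, 2 peaks lay in the span, and a stretch of 905.8 kb held none. The densest of the clusters of at least 5 receptors were small. Olfr70 to Olfr155 on chromosome 4 (6 receptors) had 18 peaks at 112.2 per Mb, with all 6 receptors near one. Olfr1416 to Olfr12 on chromosome 1 (8 receptors) had 15 at 106.1 per Mb, and Olfr62 to Olfr1328 on chromosome 4 had 18 at 66.8 per Mb, with 11 of its 13 receptors near one. The last 2 hold no other coding gene in their span, and the first holds 2, Hrct1 and Spaar, both with a peak at an end.

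**Figure D3:**
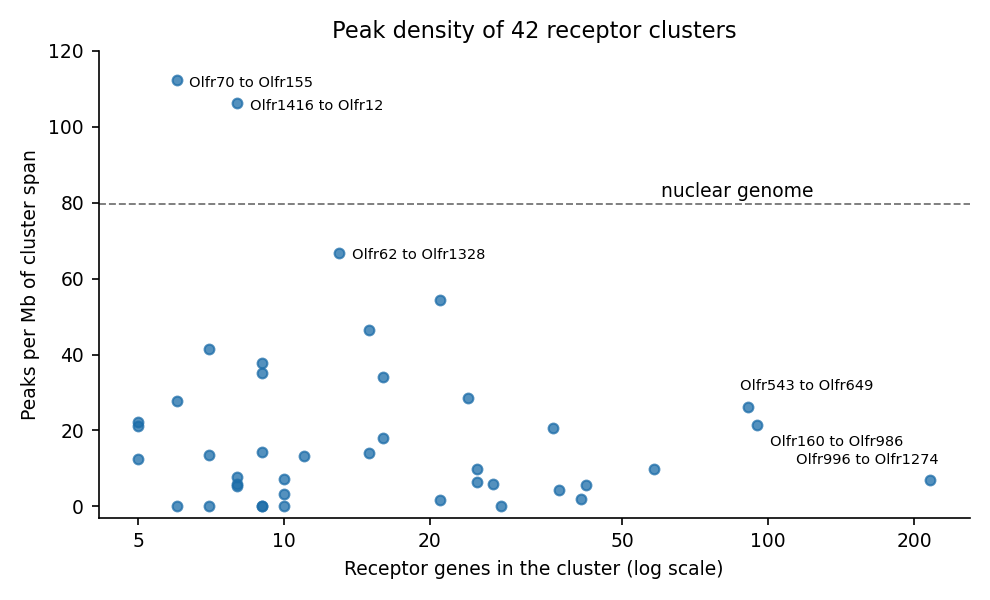
Peaks per Mb of span (vertical axis) against the number of receptor genes (log scale) for the 42 clusters of at least 5 receptors, each point 1 cluster. The dashed line is the nuclear genome at 79.5 per Mb. Olfr70 to Olfr155 and Olfr1416 to Olfr12 lie above it, and the cluster of 216 receptors lies at 6.84.

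Peaks near receptors did not gather at the gene start. Of the 401 peaks, 58 overlapped a receptor body, 42 lay within 1000 bp of one and 301 lay farther out. For the 350 whose nearest receptor has a known strand, 151 lay upstream, 38 in the body and 161 downstream, by midpoint. Of 944 receptors with strand, 34 (3.6%) had a peak in the first kb upstream, and the other 1 kb bins within 10 kb ranged from 1.38% to 3.71%. Other protein-coding genes had a peak in the first kb upstream in 62.1% of cases and in 8.96% to 20.1% in the other bins. Most receptor models appear to hold the coding part alone, since 873 of 1109 have a length divisible by 3, and the true transcript start can then lie farther upstream. Models over 1200 bp had a peak at an end in 24 of 170 cases (14.1%, 9.26 to 20.3%), against 51 of 939 shorter models (5.43%, 4.07 to 7.08%). The windows around both ends overlap in short models, so less sequence was searched there.

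**Figure D4:**
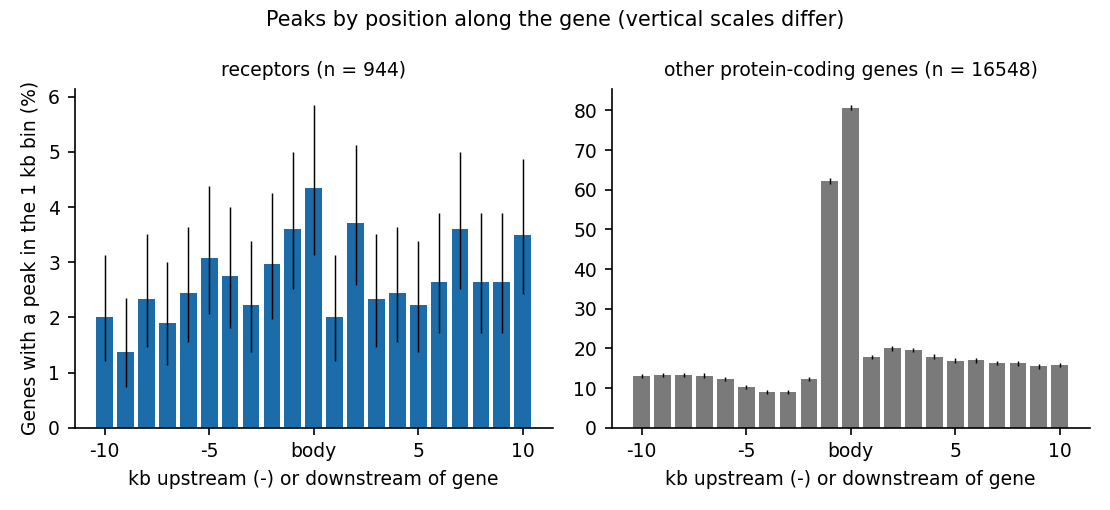
Share of genes with a peak in each 1 kb bin upstream (negative) and downstream of the gene and over the body, for 944 receptors (left) and 16548 other protein-coding genes (right), on different vertical scales. Bars are shares and lines exact 95% intervals. The first kb upstream stands at 3.6% on the left and 62.1% on the right.

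Of the receptors with a peak at an end that touches no other coding gene, Olfr452 on chromosome 6 had the widest, 1082 bp (42790377 to 42791458), partly over the gene. Olfr1331 on chromosome 4 had 876 bp, Olfr639 and Olfr530 on chromosome 7 had 792 and 765 bp, and Olfr145 on chromosome 9 had 716 bp. Olfr1415 (656 bp), Olfr550 (634 bp), Olfr652 (592 bp), Olfr107 (589 bp) and, at the same width of 583 bp, Olfr222 and Olfr658 followed. Of these 11, Olfr222 is an edge gene and the others are interior genes. The receptors with the most peaks within 10 kb were Olfr750 and Olfr90, with 6 each. The 6 at Olfr90, the first receptor of a chromosome 17 cluster of 36, all lay on the outer side, from 1433 to 8868 bp away. Olfr12, Olfr1410 and Olfr70 had 5 each. Olfr12 and Olfr1410 lie in the dense chromosome 1 cluster, and 3 of the peaks at Olfr70, an edge gene, lay in or at the neighbouring gene Tmem8b.

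Of the 10 receptors known from other work that were found, 1 had a peak at an end, beside 6.76% of all receptors. Olfr78, a short-chain fatty acid receptor known from kidney and carotid body, had 2 peaks on one side, of 633 bp at 1551 bp and 319 bp at 6490 bp from the gene. Olfr558, also known from blood vessels, had 1 within 10 kb and Olfr544, a receptor for azelaic acid, had 3, and none of these lay at an end. Olfr1393, a receptor of the kidney tubule, had 3 peaks of 260 to 431 bp, all within its gene model. Olfr1507, known as MOR28, had 1 of 388 bp over an end (52495407 to 52495794). Olfr2 (I7), Olfr17 (P2), Olfr73 and Olfr160 (M72), which are widely used to study odorant coding, had 0 within 10 kb, and Olfr160 alone of these 4 had many within 50 kb, 10. Olfr151 is not analysed here.

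Peaks in these neighbourhoods were narrower than others. They ran from 122 to 1872 bp in width, the middle 50% from 295 to 511 bp, and their median of 387 bp compares with 425 bp for all other nuclear peaks. Of the 401, 107 (26.7%) were at least 500 bp wide, against 38.3% of all nuclear peaks. The 25 peaks (6.23%, 4.07 to 9.07%) in or at a non-receptor coding gene, against 57.7% of all nuclear peaks, had a median of 631 bp, and the 376 away from one had 383.5 bp. All other peaks away from coding genes had a median of 412 bp. Of the 10 peaks of at least 1000 bp, 7 were in or at another coding gene. The widest lay at Sprn, of the prion family (1872 bp, chr7:140153312-140155183), at Ndufa10, of mitochondrial complex I (1624 bp, chr1:92472998-92474621), and at the zinc finger gene Zfp202 (1430 bp, chr9:40191821-40193250). These 3 lay in the outer flanks of clusters. In all, 63 peaks lay in outer flanks, of which 19% were in or at another coding gene, and 313 inside spans, of which 3.51% were. The deposited score was below its ceiling of 1000 for 6 of the 401 (1.50%) and for 1.53% of all nuclear peaks.

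Non-receptor coding genes inside the clusters also had peaks less often than elsewhere. Of 37 such genes lying wholly inside a cluster span, 13 had a peak at an end (35.1%, 20.2 to 52.5%), against 162 of 241 (67.2%, 60.9 to 73.1%) within 100 kb outside and 73.9% of those elsewhere. The 3 Trim genes inside, Trim21, Trim58 and Trim68, which encode RING-finger proteins, each had one. Syde1, Ilvbl, Vwa5a, Ubd and H2-M3 also did. None of the 5 beta-globin genes had one, nor did Ubqln5, Ubqlnl or the milk protein gene Lalba. These genes were picked out after their values were seen. When gaps of up to 1000 kb are joined the spans take in many more genes, and 111 of 204 (54.4%) had one.

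Other chemoreceptor families were set beside the olfactory receptors. The vomeronasal families Vmn1r and Vmn2r, which detect pheromones, held 7.88 (5.55 to 10.9) and 6.50 (4.56 to 9.0) peaks per Mb, below the 20.1 of the olfactory receptors, and 12.3% of 228 and 18.9% of 122 genes had a peak within 10 kb. The bitter taste receptors Tas2r held 29.8 per Mb (17.4 to 47.8), and 10 of 35 had a peak within 10 kb. The trace amine receptors Taar held 50.8 (24.3 to 93.3), with 9 of 15. The 318 pseudogenes and non-coding genes with an Olfr symbol lie among the receptors, so the same peak can count for both groups. They stood at 18.0 per Mb (14.7 to 21.8) and 25.5%, with intervals that include the receptors' values. No test of these differences was made, since genes of a cluster are not independent.

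Of the 25 genes listed for the choice, export and signalling of olfactory receptors, most had a peak at an end. All 10 genes of receptor choice and its feedback (Lhx2, Ldb1, Ebf1, Ebf2, Ebf3, Ebf4, Emx2, Kdm1a, Atf5 and Eif2ak3) had a peak at an end, the widest at Ebf4 (1575 bp), Lhx2 (1248 bp) and Atf5 (1140 bp). Many of these genes also serve the cortex. All 3 export genes, Rtp1, Rtp2 and Reep1, had one. Of 12 signalling genes 8 did, among them the G protein gene Gnal (1812 bp), the adenylyl cyclase gene Adcy3 (1563 bp) and Cnga4 (1102 bp). The other 4, the channel genes Cnga2 and Cngb1, the olfactory marker protein gene Omp and Stoml3, had none at an end. These counts stand beside the 70.4% of all protein-coding genes. Of markers, 5 of 5 pan-neuronal and 3 of 4 excitatory cortical genes had a peak at an end, as did 2 of 5 olfactory sensory neuron, 1 of 3 astrocyte (Gfap) and 1 of 3 microglial genes (Tmem119).

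Receptor genes resemble each other in sequence, and reads that fit several places may be lost. The authors' handling of such reads was not given in the sources used, and its part in the low densities was not tested. By midpoint, receptor bodies held 22.1 peaks per Mb (16.3 to 29.4) and their flanks 19.4 (17.4 to 21.5). The bodies include long models: a peak overlapped 27 of 170 models over 1200 bp (15.9%) and 21 of 939 shorter ones (2.24%). The body density therefore does not describe the coding sequence alone.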

How the data were processed

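The authors deposited 1 list of consensus peaks, each with start, end, name and a score of unstated scale that is capped at 1000. Peak names carry MSPC, per the file's values. Per the submitters' processing notes, MACS2, deepTools and MultiQC were used, with the build mm10 and no versions. Aligner, filters, thresholds and contributing samples: not given in the sources used here. A planned test between knockdown groups was not run, as the list has no counts. Genes came from RefSeq (GRCm38.p6). The gene table used here has no strand column, and strand was taken from the RefSeq promoter table for 944 receptors. The 348 scaffold genes, 1 receptor among them, were left out. Peaks counted by any overlap unless midpoints are named. The 8 mitochondrial peaks were left out. Members and lists were chosen with earlier results of these data known. Named receptors are the 10 with the widest end peak away from other coding genes (and 1 tied with the last), the 5 with most peaks, the 5 isolated ones with most and the first 3 with none, and 11 well known ones, with the 5 largest clusters and the 3 densest of at least 5 receptors. Counting was tested on simulated data: 200 of 200 planted peaks were recovered. Intervals used scipy 1.17.1, tables pandas 2.3.3 and numpy 2.4.6, figures matplotlib 3.10.9, all under Python 3.11.15. Some genes of the lists and cluster spans are counted but not reported here by name.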

Additional observations from a re-analysis of the deposited data

How the results depend on the processing

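Across 36 alternatives, 18 values (for differences, both of the shares compared) stayed within the reported intervals. The share of receptors with a peak in their neighbourhood was 11.3% with flanks of 2 kb, 61.3% with 50 kb and 10.01% with peaks of at least 500 bp. The gene-end share was 4.51% with a 500 bp window, 11.9% with 2500 bp and 2.34% with peaks of at least 500 bp. Neighbourhood density was 23.8 peaks per Mb with 2 kb flanks, 26.0 with 50 kb and 5.37 with peaks of at least 500 bp. Isolated minus clustered share, 23.6 percentage points as reported, was 11.7 with 2 kb flanks and turned to -6.93 and -15.9 with gaps of 500 and 1000 kb, which leave few isolated receptors. Edge minus interior share, 25.6 as reported, was 8.02 with gaps of 50 kb, 13.0 with 2 kb flanks and 22.5 without the largest chromosome 2 cluster, an alternative added after seeing the data. Outside minus inside density, 77.6 per Mb over 500 kb, was 71.8 for clusters of at least 10 receptors and 68.2 for clusters spanning over 400 kb, also added after seeing the data. The share for other coding genes inside spans was 54.4% with gaps of 1000 kb. Keeping scaffold genes was not run, since they have no chromosome position. No paired analysis was possible because values by sample are lacking from the peak list, and for the same reason no replicate could be left out. Depth limits are unknown.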
